A study of Mus musculus with 12 samples.

Results

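A set of 10 genes that accompany or regulate the regrowth of injured axons was followed in RNA-seq libraries of scratched mouse cortical neurons. They were chosen by name (Sox11, Gap43, Klf4, Klf6, Klf7, Klf9, Gadd45a, Gadd45g, Sprr1a and Stat3), and all 10 were found among the 55901 genes of the expression table. The cells were cortical neurons of neonatal C57BL/6J mice, grown in culture and given arabinosylcytosine, an inhibitor of DNA synthesis, to hold back glial cells in every group. Control cultures were left intact. Trauma cultures were scratched with a needle and harvested after 24 h, and Trauma+TGF-β1 cultures had the same scratch with 10 ng/mL of the cytokine TGF-β1 in the medium over those 24 h. Each group had 4 libraries. No group received TGF-β1 without a scratch, so a response of uninjured cells to the cytokine was not measured. No source used here says whether the 4 libraries came from separate cultures, and the study's account of library preparation names fewer libraries than were deposited, so the p-values measure the spread between these libraries, which may be technical.

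An injured peripheral neuron switches on a set of regeneration-associated genes. In it, the cytokine-activated factor Stat3 and the factors Sox11, Atf3 and Jun drive genes of the growth cone, such as Gap43, and genes that are otherwise nearly silent in neurons, such as Sprr1a. Central neurons are known to switch on this set weakly after injury. The Krüppel-like factors act in opposite directions on neurite growth: Klf6 and Klf7 promote it, and Klf4 and Klf9 restrain it. Gadd45 proteins are small stress-induced adaptors that act in kinase signaling, DNA repair and DNA demethylation.

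The sequences upstream of Klf9 and Sprr1a are shown because both matched TGANTCA, a loose pattern for AP-1, the dimer that Jun forms. Klf9 was among the more abundant members, while Sprr1a was at or near 0. They are the 250 bases before the RefSeq gene start (GRCm38.p6), written 5′ to 3′ on the gene's own strand. RefSeq promoters matched 9 of the 10 members (all but Gap43). The Klf9 stretch lies at chr19:23140976-23141225 on the plus strand and that of Sprr1a at chr3:92485882-92486131 on the minus strand. Capitals mark matches to TGANTCA (AP-1 pattern) or TTCNNNGAA (STAT), searched on both strands, with any base allowed at N.
Klf9: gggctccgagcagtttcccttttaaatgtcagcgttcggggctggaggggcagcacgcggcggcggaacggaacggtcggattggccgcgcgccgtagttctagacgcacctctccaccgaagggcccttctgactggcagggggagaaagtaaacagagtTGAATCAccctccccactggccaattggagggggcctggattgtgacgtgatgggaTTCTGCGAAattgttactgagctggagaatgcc
Sprr1a: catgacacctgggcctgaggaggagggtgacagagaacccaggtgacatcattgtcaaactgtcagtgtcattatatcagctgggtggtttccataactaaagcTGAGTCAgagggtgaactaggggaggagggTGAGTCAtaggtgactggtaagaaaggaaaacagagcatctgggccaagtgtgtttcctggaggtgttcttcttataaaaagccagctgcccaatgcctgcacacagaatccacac
Klf9 matched the AP-1 pattern as TGAATCA at bases -89 to -83 and held the STAT letters at bases -33 to -25, counted back from the gene start. The pattern is looser than the AP-1 site, so the Klf9 match is not an AP-1 site by its letters alone. Sprr1a matched it as TGAGTCA at bases -146 to -140 and again at -116 to -110. Of the 32851 RefSeq promoters of this length, 6.75% held TGANTCA and 7.02% held TTCNNNGAA. The other 7 members with a promoter held neither set of letters, and none of the 9 held TGACGTCA (CRE), which 1.55% of promoters hold. The letters CACCC, which Krüppel-like factors bind, were found in 7 of the 9 (all but Klf4 and Klf6) and in 52.0% of all promoters. In Klf9, and at 1 place in Sprr1a, they overlapped a TGANTCA match by 2 bases. The Smad letters CAGAC were found upstream of Gadd45a and Gadd45g, and in 42.2% of all promoters. A match describes the letters and shows no binding.

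Values are FPKM (fragments per kilobase of gene, scaled between libraries), which correct for gene length, so that levels can be set side by side between genes. The reads assigned to genes numbered 15052486 to 17381671 per library. The first Control library stood apart from the other 11, with a score of 58.9 on the second principal component against -21.5 to 9.02, and the differences of Stat3, Klf9, Gadd45g, Gap43 and Klf4 from Control are therefore also given without it. The neuron markers were present at a summed 1192 to 1466 FPKM, with Tubb3, Map2 and Slc17a7 among them in each library. Markers of glial cells were present too. The summed astrocyte markers (10 genes, all tested) were 218 to 247 FPKM in Control, 278 to 340 in Trauma and 292 to 313 with TGF-β1 added, and 8 of the 10 rose in Trauma against Control (6 without the first Control library). In Trauma+TGF-β1, 4 rose and 0 fell against Control, and 1 rose and 3 fell against Trauma. Gfap led the rise of the sum, with 47.7 ± 4.10, 87.3 ± 13.2 and 97.1 ± 3.63 FPKM in the 3 groups. Aldoc was 86.4 ± 8.87, 98.3 ± 8.54 and 76.3 ± 2.62 FPKM. The summed microglia markers were 20.9 to 25.0, 31.4 to 40.2 and 25.7 to 29.5 FPKM, most of it from C1qa, C1qb and C1qc, while Tmem119 and Trem2 were at 0 in at least 1 library. Of the 10 listed microglia markers 5 were tested, and 2 rose in Trauma against Control and 0 in Trauma+TGF-β1 against Control. The summed markers of dividing cells were 18.5 to 19.9, 25.6 to 29.5 and 23.8 to 25.3 FPKM. Among the 8 genes listed, 6 were tested, and all 6 rose in Trauma against Control. The test took genes with a mean of at least 0.5 FPKM over all libraries. Mki67 and Cdk1 had Control means below this (0.251 and 0.170 FPKM) and entered only through the scratched groups. Their place among the 6 therefore depended on higher values after the scratch. Ccnb1 (0.299 FPKM in Control, 0.515 in Trauma) and Birc5 (0.366 and 0.505) were not tested. Oligodendrocyte lineage markers came to 54.0 to 60.3, 69.7 to 77.2 and 66.4 to 73.3 FPKM. Fibroblast and mural cell markers came to 6.49 to 7.55, 9.70 to 12.0 and 14.6 to 17.8 FPKM, led by Acta2 and Fn1, and endothelial markers stayed between 0.656 and 1.16 FPKM. Of the 5 tested fibroblast and mural cell markers, 1 rose in Trauma against Control and 2 in Trauma+TGF-β1 against Control. In these bulk samples, fewer cells of a type and less RNA per cell cannot be told apart.

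The levels of the 10 genes spanned a wide range. In Control, Gap43 was highest at 575 ± 33.4 FPKM (mean ± SD, n = 4), and its mean over all 12 libraries was above that of 99.8% of the 15016 genes tested. Klf9 followed at 43.5 ± 0.987 FPKM, then Klf7 at 23.8 ± 1.12, Sox11 at 22.8 ± 1.52 and Klf6 at 19.0 ± 0.752. Lower down were Stat3 at 6.33 ± 0.369 FPKM, Gadd45g at 4.84 ± 1.11, Gadd45a at 0.854 ± 0.248, Klf4 at 0.160 ± 0.0868, and Sprr1a at 0. Neighbours in this order overlapped between Control libraries for Klf7 with Sox11 and for Stat3 with Gadd45g, and the other neighbours did not overlap. In Trauma the mean of Gadd45g was above that of Stat3 (10.3 against 7.78 FPKM), with overlapping libraries. In Trauma+TGF-β1, each Klf7 library was above each Sox11 library.

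**Figure D1:**
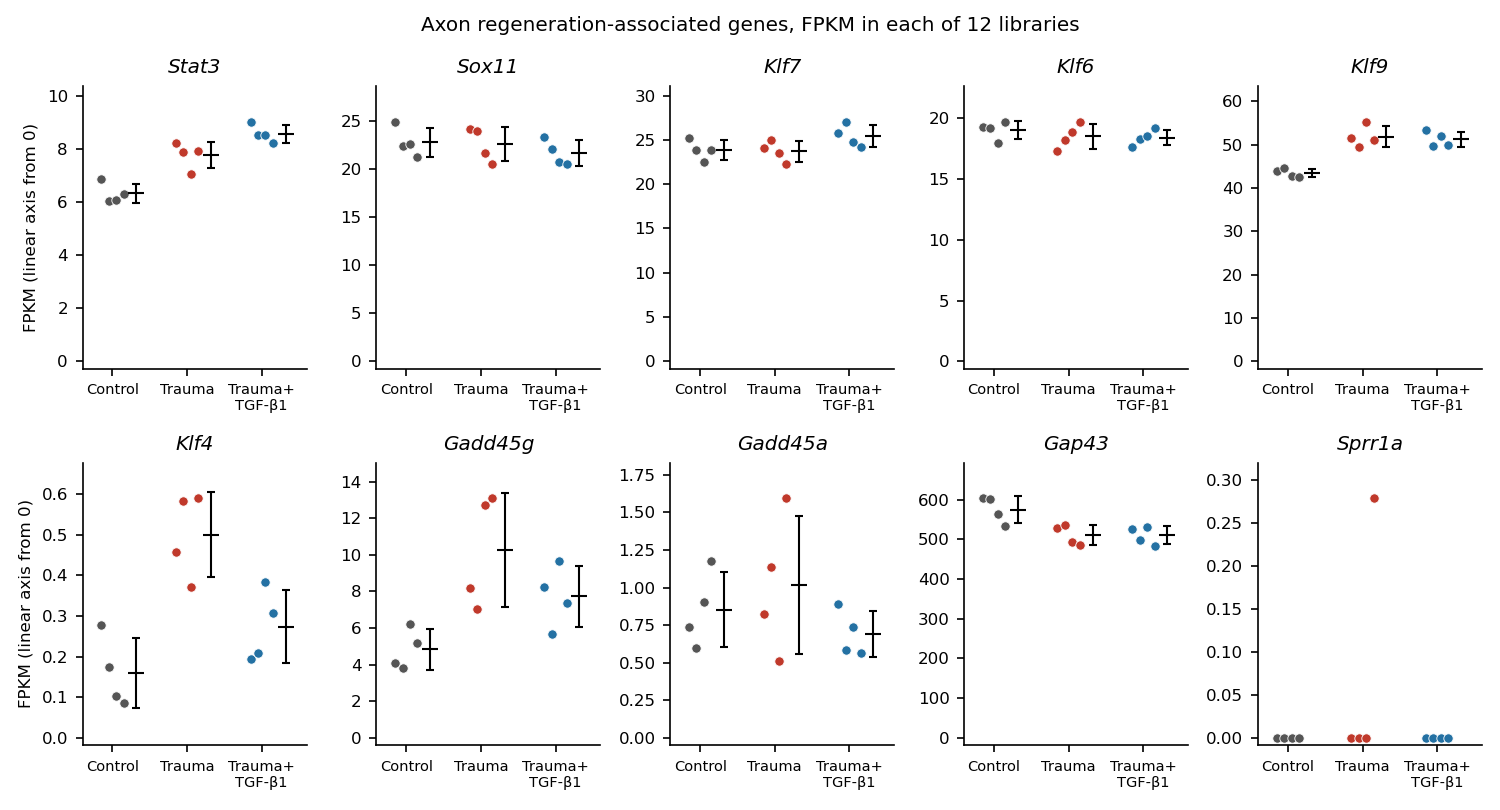
FPKM of the 10 members in each of the 12 libraries, on linear axes from 0; points are libraries in 3 groups of 4, and black bars are the mean and SD (left out for Sprr1a). Stat3, Klf9, Klf4 and Gadd45g have all 4 Trauma points above all 4 Control points, while Sox11, Klf6 and Klf7 overlap between Control and Trauma, and Sprr1a is at 0 in 11 of 12 libraries.

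The first comparison asks what differed 24 h after the scratch alone. Klf9, Stat3 and Gadd45g rose in Trauma against Control, and Gap43, Sox11, Klf6, Klf7 and Gadd45a did not pass the test. Differences were tested with limma on log2(FPKM + 0.1) over the 15016 genes with a mean of at least 0.5 FPKM, and a gene was called at an adjusted p (Benjamini-Hochberg over all these genes) of at most 0.05. Of the 10 members, 8 passed the filter on low values, and Klf4 and Sprr1a did not. Of the 8 tested, 3 were called up, where 3.30% of all genes tested were, and 0 were called down, where 2.70% were. At an unadjusted p under 0.05, 4 of the 8 passed, Gap43 being the fourth; limma's voom, run on the read counts recovered from FPKM, called it too. The 4 Trauma libraries did not overlap the 4 Control libraries for the 3 called members and for Klf4, where 12.9% of all genes tested did not overlap. The median log2 fold change of all genes tested was -0.012.

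The second comparison asks what differed when TGF-β1 was added to scratched cells. By limma, 0 of the 8 tested members were called up, where 4.40% of all genes tested were, and 0 down, where 7.71% were. At an unadjusted p under 0.05, 1 member passed (Stat3), and voom called 0. The groups did not overlap for 1 member, again Stat3, a share below the 22.2% of all genes tested. In this comparison the log2 fold changes of 14699 genes ran with the GC content of their transcripts (Spearman's rho -0.465 across genes), against 0.0877 in Trauma against Control and -0.360 in Trauma+TGF-β1 against Control. In a fit corrected for GC content 0 members were called here, and 5 in Trauma+TGF-β1 against Control.

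Against Control, the scratched cells with TGF-β1 had 2 of the 8 tested members up (Stat3 and Klf9), where 6.14% of all genes tested were, and 1 down (Gap43), where 10.4% were. Those 3 were also the members whose groups did not overlap, where 18.5% of all genes tested did not. This comparison shares its Control libraries with the first and its Trauma+TGF-β1 libraries with the second, so the 3 are not independent of each other. Without the first Control library 2 members were called, Gap43 being lost.

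**Figure D2:**
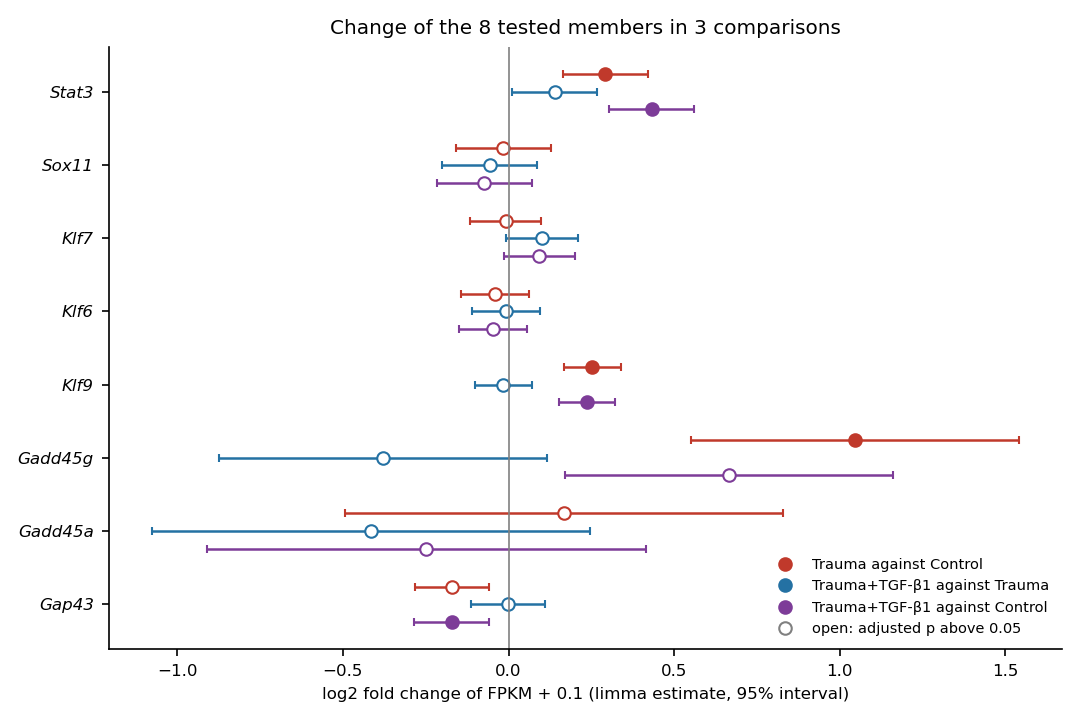
Estimated log2 fold change of FPKM + 0.1 (horizontal axis) with its 95% interval from limma for the 8 tested members in the 3 comparisons; filled points passed an adjusted p of 0.05 and open points did not. Gadd45g has the highest estimate (1.05, Trauma against Control), Stat3 and Klf9 are filled in both comparisons with Control, and all points for Trauma+TGF-β1 against Trauma are open.

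Stat3 (ENSMUSG00000004040, chr11:100885098-100939540, GRCm38, minus strand) encodes the transcription factor that cytokines of the interleukin-6 family activate through the shared receptor chain gp130. Its FPKM were 6.86, 6.06, 6.10 and 6.31 in the Control libraries, 8.22, 7.89, 7.08 and 7.95 in Trauma, and 9.03, 8.55, 8.52 and 8.22 in Trauma+TGF-β1. All Trauma libraries were above all Control libraries, and all Trauma+TGF-β1 libraries were above both, by less than 0.01 FPKM at the border with Trauma. The log2 fold change in Trauma against Control was 0.29 (SE 0.059, limma adjusted p = 0.0132), which is 1.23-fold by the means. In Trauma+TGF-β1 against Control it was 0.43 (SE 0.059, limma adjusted p = 0.000779), which is 1.35-fold by the means. The first Control library had the highest Stat3 of its group, and without it these log2 fold changes were 0.33 (limma adjusted p = 0.00736) and 0.47 (limma adjusted p = 0.000344). Between Trauma+TGF-β1 and Trauma the difference was 0.14 on the log2 scale (95% interval 0.012 to 0.27, limma adjusted p = 0.137), not past the threshold. The astrocyte marker sums given above, whose rise was led by Gfap, were also higher in the same comparisons with Control. Their part in the Stat3 result was not tested.

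The genes around Stat3 in its pathway gave few calls. Of 8 gp130 cytokines listed, which include Il6, Lif and Cntf, 2 passed the filter on low values. Of the 9 receptor and Janus kinase genes, 8 were tested and 1 rose. It was Osmr, the receptor chain for oncostatin M, at 0.352 ± 0.0476 FPKM in Control, 0.859 ± 0.0731 in Trauma and 1.36 ± 0.185 with TGF-β1 added. The log2 fold changes of Osmr were 1.09 in Trauma against Control (limma adjusted p = 0.00284) and 0.60 in Trauma+TGF-β1 against Trauma (limma adjusted p = 0.0388). The second of these calls was lost with the GC correction and the gene length correction, and when any of 7 libraries was left out. The gp130 chain itself, Il6st, chosen after its values were seen, was not called, with 6.71 ± 0.607, 6.94 ± 0.382 and 7.37 ± 0.189 FPKM in the 3 groups.

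Of 8 inhibitors of Stat3 signaling, 7 were tested and 0 were called by limma in each of the 3 comparisons, with 2, 3 and 2 genes at an unadjusted p under 0.05. By voom, 0, 1 and 1 were called, each down. The gene length correction called 1 down in Trauma+TGF-β1 against Trauma. The GC correction with replicate block instead called 1 up in Trauma against Control and 1 up in Trauma+TGF-β1 against Control. Socs3, the feedback inhibitor that Stat3 induces, was 0.811 ± 0.337 FPKM in Control, 1.45 ± 0.586 in Trauma and 1.19 ± 0.346 with TGF-β1 added (limma adjusted p = 0.214 for Trauma against Control; the gene was chosen after its values were seen). Of the 6 other Stat genes, 2 were tested. Stat2, an interferon-signaling factor, fell from 6.02 ± 0.672 FPKM in Control to 4.15 ± 0.190 in Trauma (log2 fold change -0.52, limma adjusted p = 0.0102), opposite in direction to Stat3.

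Sox11 (ENSMUSG00000063632, chr12:27334264-27342574, minus strand) encodes a factor of immature neurons that promotes axon growth. It ranged from 21.3 to 24.9 FPKM in Control, 20.5 to 24.2 in Trauma and 20.5 to 23.4 with TGF-β1 added, and the 3 groups overlapped. The log2 fold change was -0.015 in Trauma against Control (95% interval -0.16 to 0.13, limma adjusted p = 0.932) and -0.057 in Trauma+TGF-β1 against Trauma (95% interval -0.20 to 0.087, limma adjusted p = 0.620). In Trauma+TGF-β1 against Control it was -0.073 (95% interval -0.22 to 0.071, limma adjusted p = 0.493), and called down under 1 of the alternative settings. Sox11 had 2728 to 3471 reads in each library. Its close relatives Sox4 and Sox12 were tested as well. Sox12 fell in Trauma+TGF-β1, with 26.0 ± 1.21 FPKM in Control, 24.3 ± 1.44 in Trauma and 19.7 ± 1.54 with TGF-β1 added. Against Trauma it fell by 0.30 on the log2 scale (limma adjusted p = 0.0130), a call lost with the GC correction, and against Control it fell by 0.40 (limma adjusted p = 0.00156).

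Of the 4 Krüppel-like factors, 1 of the pair that restrains neurite growth rose and the other was too low for the fit. The pair that promotes growth was not called in the main fit. Klf9 (ENSMUSG00000033863, chr19:23141226-23168134, plus strand) also answers to thyroid and glucocorticoid hormones. Its FPKM were 44.0, 44.6, 42.8 and 42.5 in Control, 51.6, 49.6, 55.3 and 51.0 in Trauma, and 53.3, 49.8, 52.1 and 49.9 in Trauma+TGF-β1. The lowest scratched library, of either group, was above the highest Control library, and the 2 scratched groups overlapped. The log2 fold change was 0.25 in Trauma against Control (SE 0.039, limma adjusted p = 0.00284), 1.19-fold by the means, and 0.24 in Trauma+TGF-β1 against Control (SE 0.039, limma adjusted p = 0.00250). Without the first Control library these were 0.26 (limma adjusted p = 0.00577) and 0.24 (limma adjusted p = 0.00247). Between Trauma+TGF-β1 and Trauma it was -0.015 (95% interval -0.10 to 0.070, limma adjusted p = 0.840).

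Klf4 (ENSMUSG00000003032, chr4:55527143-55532466, minus strand), which restrains axon growth and is also expressed in glial and vascular cells, was below the filter on low values. Its FPKM were 0.277, 0.174, 0.104 and 0.0851 in Control, 0.459, 0.583, 0.371 and 0.590 in Trauma, and 0.194, 0.210, 0.385 and 0.307 in Trauma+TGF-β1. These stand for 4 to 13 reads per library in Control, 20 to 32 in Trauma and 9 to 19 with TGF-β1 added. All Trauma libraries were above all Control libraries, 3.13-fold by the means and 4.14-fold without the first Control library, and the Trauma+TGF-β1 libraries overlapped both groups. The two-sided exact permutation test gave p = 0.0286 for Trauma against Control, the smallest that 4 against 4 libraries allow, p = 0.0571 for Trauma+TGF-β1 against Trauma and p = 0.114 for Trauma+TGF-β1 against Control. In a limma fit of all 33142 genes with a read, the log2 fold change in Trauma against Control was 1.25 (SE 0.31, adjusted p = 0.0728), so Klf4 did not pass when adjusted over all genes. The sums of the astrocyte, microglia and dividing cell markers were also highest in Trauma or higher in both scratched groups, and their part in the Klf4 values was not tested.

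Klf6 (ENSMUSG00000000078, chr13:5861482-5870394, plus strand) ranged from 17.9 to 19.7 FPKM in Control, 17.3 to 19.7 in Trauma and 17.7 to 19.2 with TGF-β1 added. Klf7 (ENSMUSG00000025959, chr1:64029447-64122282, minus strand) ranged from 22.4 to 25.2, 22.2 to 25.0 and 24.2 to 27.0 FPKM. Neither gene of this growth-promoting pair separated any 2 groups. The log2 fold change in Trauma against Control was -0.040 for Klf6 (95% interval -0.14 to 0.063, limma adjusted p = 0.707) and -0.0084 for Klf7 (95% interval -0.12 to 0.10, limma adjusted p = 0.954). The estimate for Klf7 in Trauma+TGF-β1 against Trauma was 0.10 (95% interval -0.0061 to 0.21, limma adjusted p = 0.197). In Trauma+TGF-β1 against Control, Klf6 was at -0.048 (95% interval -0.15 to 0.054, limma adjusted p = 0.527). Klf7 was at 0.093 there (95% interval -0.014 to 0.20, limma adjusted p = 0.222). In that comparison Klf6 was called down under 2 of the alternative settings, and Klf7 was called up under 1. As a description, the FPKM of Klf9 divided by that of Klf7 was 1.75 to 1.91 in the Control libraries, 1.98 to 2.35 in Trauma and 1.84 to 2.10 with TGF-β1 added.

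The rest of the Krüppel-like family showed no call in Trauma against Control by limma, among 10 tested of 13 genes, with 2 at an unadjusted p under 0.05 and 1 called down by voom. With TGF-β1 added to scratched cells, Klf8 rose by 0.25 on the log2 scale (5.21 ± 0.315 to 6.23 ± 0.448 FPKM, limma adjusted p = 0.0336). Klf15, a glucocorticoid-responsive factor, fell by 0.41 (6.42 ± 0.974 to 4.78 ± 0.505 FPKM, limma adjusted p = 0.0487), and Klf16 fell by 0.37 (15.6 ± 0.578 to 12.2 ± 2.05 FPKM, limma adjusted p = 0.0412). All 3 of these calls were lost with the GC correction, and each was lost when 1 of several libraries was left out. Against Control, Klf16 fell by 0.48 (limma adjusted p = 0.0110) and Klf13 by 0.32 (limma adjusted p = 0.00212) in Trauma+TGF-β1, and both calls were kept when each library was left out. The call of Klf16 was lost with the GC correction and replicate block together.

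Gadd45g (ENSMUSG00000021453, chr13:51846678-51848468, plus strand), a stress-induced gene that is also active in developing neurons, had the highest fold change of the tested members. Its FPKM were 4.10, 3.81, 6.24 and 5.20 in Control, 8.19, 7.04, 12.7 and 13.1 in Trauma, and 8.23, 5.68, 9.64 and 7.35 in Trauma+TGF-β1. All Trauma libraries were above all Control libraries, but within Trauma 2 libraries lay at 7.04 to 8.19 and 2 at 12.7 to 13.1. Trauma+TGF-β1 lay between, overlapping Control and Trauma. The log2 fold change in Trauma against Control was 1.05 (SE 0.23, limma adjusted p = 0.0191), which is 2.12-fold by the means (4.84 ± 1.11 to 10.3 ± 3.10 FPKM). The call rested on single libraries: without the second Control library it was 0.94 (limma adjusted p = 0.0516), without the third Trauma library 0.93 (limma adjusted p = 0.0586), and without the fourth 0.91 (limma adjusted p = 0.0652). Without the first Control library it was 0.98 (limma adjusted p = 0.0450). In Trauma+TGF-β1 against Control, Gadd45g was 1.60-fold by the means and not called (log2 fold change 0.67, limma adjusted p = 0.0654), and it was called with the GC correction (limma adjusted p = 0.0219). Between Trauma+TGF-β1 and Trauma the estimate was -0.38 with a 95% interval of -0.87 to 0.12 (limma adjusted p = 0.301).

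Gadd45a (ENSMUSG00000036390, chr6:67035096-67037457, minus strand), which is induced by DNA damage and is a regular part of the injury response of peripheral neurons, was far lower than Gadd45g in each library. It ranged from 0.600 to 1.18 FPKM in Control, 0.513 to 1.59 in Trauma and 0.567 to 0.893 with TGF-β1 added. The groups overlapped, and no comparison was called, with a log2 fold change of 0.17 in Trauma against Control and a wide 95% interval of -0.50 to 0.83 (limma adjusted p = 0.823). The 16 to 50 reads behind each value limit this comparison. Their relative Gadd45b, tested but not called, was 1.93 ± 0.636 FPKM in Control, 3.03 ± 0.293 in Trauma and 2.27 ± 0.369 with TGF-β1 added (limma adjusted p = 0.0719 in Trauma against Control; the gene was chosen after its values were seen). In that comparison it was called with the GC correction (limma adjusted p = 0.0479), by voom (adjusted p = 0.0455) and without the third Control library (limma adjusted p = 0.0290).

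Gap43 (ENSMUSG00000047261, chr16:42248442-42340651, minus strand) encodes a membrane protein of growth cones and is the standard marker of growing axons. Its FPKM were 603, 601, 563 and 534 in Control, 528, 536, 494 and 486 in Trauma, and 527, 499, 531 and 484 in Trauma+TGF-β1. The lowest Control library lay among the Trauma libraries and just above the highest Trauma+TGF-β1 library. The log2 fold change was -0.17 in both comparisons with Control (SE 0.052), with a limma adjusted p of 0.0775 for Trauma and 0.0405 for Trauma+TGF-β1, so it passed the threshold in the second alone. The difference between these scratched groups was -0.0015 (95% interval -0.11 to 0.11, limma adjusted p = 0.991). The call in Trauma+TGF-β1 against Control was lost when 8 of the 12 libraries were left out in turn, including the first Control library (-0.15, limma adjusted p = 0.0675). It was also lost under several other settings, among them quantile normalization, where the value was -0.035 (limma adjusted p = 0.687). With the libraries left out included, the call was kept in 13 alternatives and lost in 12. Conversely Trauma against Control was called with the GC correction (limma adjusted p = 0.0404) and by voom (adjusted p = 0.0164). The neuron marker sum moved the same way, 1403 to 1466 FPKM in Control, 1262 to 1344 in Trauma and 1192 to 1232 with TGF-β1 added, mostly through Tubb3. The 10 neuron markers went both ways: 1 rose and 2 fell in Trauma against Control, with a median log2 fold change of -0.020, and 3 rose and 4 fell in Trauma+TGF-β1 against Control, with a median of 0.063 (5 rose and 1 fell under quantile normalization). Their part in the Gap43 values was not tested.

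Sprr1a (ENSMUSG00000050359, chr3:92483952-92485895, minus strand), a cornified-envelope protein gene that peripheral neurons induce strongly after axotomy, had 0 reads in 11 of 12 libraries and 4 reads (0.279 FPKM) in the fourth Trauma library. A count of 0 allows up to 3 reads, which is 0.209 to 0.244 FPKM depending on the library, for counting error only. No expression of Sprr1a above this limit was detectable in those 11 libraries. Of its relatives, Sprr2a1 and Sprr3 had 0 reads in all libraries, and Sprr1b had reads in 1 library, of the Trauma group.

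**Figure D3:**
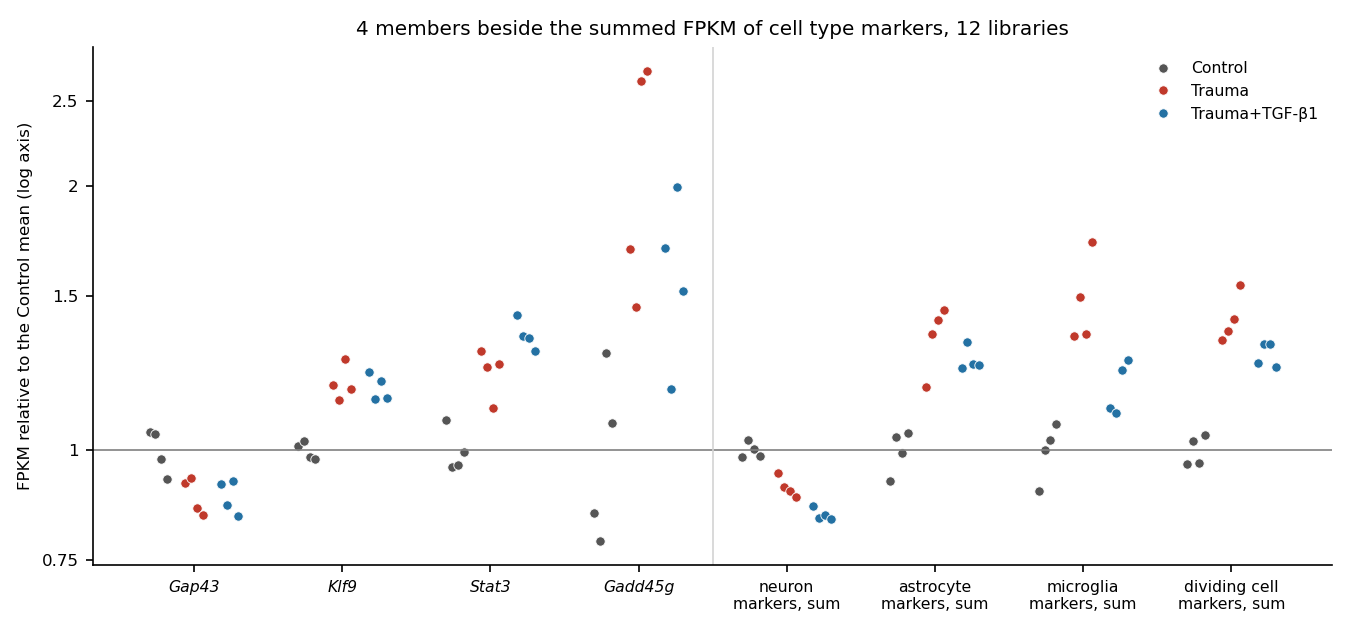
FPKM of Gap43, Klf9, Stat3 and Gadd45g and summed FPKM of 4 lists of cell type markers in each of the 12 libraries, divided by the Control mean (log axis); points are libraries, grey for Control, red for Trauma and blue for Trauma+TGF-β1. The astrocyte, microglia and dividing cell sums and Klf9, Stat3 and Gadd45g have their Trauma points above Control, and the neuron sum has all 8 scratched points below Control.

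Jun and Atf3, which act with these members in injured peripheral neurons, gave different results. Jun, an AP-1 subunit that axotomy induces, rose from 9.01 ± 0.377 FPKM in Control to 18.0 ± 0.959 in Trauma (log2 fold change 0.99, SE 0.055, limma adjusted p = 2.55e-06), and was 15.4 ± 0.952 in Trauma+TGF-β1. With TGF-β1 it was lower than in Trauma by 0.22 on the log2 scale (limma adjusted p = 0.0238), a call lost with the GC correction and when any of 4 libraries was left out. Atf3, the stress-induced factor most often used as a mark of axotomized neurons, was 1.35 ± 0.201 FPKM in Control, 1.89 ± 0.622 in Trauma and 1.38 ± 0.235 with TGF-β1 added, and was called in none of the 3 comparisons (limma adjusted p = 0.309 in Trauma against Control). Of the 12 tested factors in this list, 2 rose in Trauma against Control, Jun and Cebpd, an inflammation-linked factor (1.90 ± 0.580 to 3.36 ± 0.575 FPKM, limma adjusted p = 0.0268), whose call was lost when any of 5 libraries was left out. In Trauma+TGF-β1 against Trauma, Hif1a, the hypoxia factor, rose by 0.26 (limma adjusted p = 0.00936, lost with the GC correction) and Jun fell, and against Control Jun and Cebpd were up.

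Among listed genes that injured peripheral neurons induce, mainly for secreted or surface proteins but with some intracellular ones such as Hspb1, 10 rose in Trauma. Of 24 listed, 20 were tested, and 10 rose and 0 fell in Trauma against Control, where 3.30% and 2.70% of all genes tested did. The median log2 fold change was 0.58 against -0.012 over all genes tested. Lgals1, a galectin, went from 3.40 ± 1.75 to 10.5 ± 0.758 FPKM (log2 fold change 1.75, limma adjusted p = 0.00534). Timp1, a protease inhibitor, went from 0.570 ± 0.279 to 1.58 ± 0.726 FPKM (limma adjusted p = 0.0468), on 4 to 42 reads per library, a call lost when any of 10 libraries was left out or voom was used. Anxa2, an annexin, went from 1.26 ± 0.0697 to 2.85 ± 0.343 FPKM (limma adjusted p = 5.04e-05). The neuropeptide genes Npy and Adcyap1, the neurotrophin Bdnf, the plasminogen activator Plat, S100a10, Itgb1 and Tnfrsf12a made up the rest of the 10. In Trauma+TGF-β1 against Trauma 1 rose (Hspb1, a small heat shock protein, from 1.00 ± 0.346 to 2.67 ± 0.475 FPKM, limma adjusted p = 0.0370), and against Control 13 rose (10 to 13 with each library left out, the calls of Lgals1 and Ecel1 being lost when any of 9 libraries was left out). Many of these genes are also expressed in astrocytes, microglia or fibroblasts, whose marker sums were higher in both scratched groups, and the part of those cells was not tested. Leaving out each library in turn gave 9 to 10 up in Trauma against Control, and 1 down without the first Control library. The call of Hspb1 was lost when any of the 8 scratched libraries was left out. Among the genes that rose against Control with TGF-β1 added, Hspb1 and Cd44 had Control means below the filter of 0.5 FPKM (0.476 and 0.489). They entered the fit only through the scratched groups, and Cd44 is named for that reason.

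Growth cone and axon growth genes, the group that Gap43 belongs to, mostly fell where they were called. Of 25 tested, 1 rose and 7 fell in Trauma against Control, 3 rose and 7 fell in Trauma+TGF-β1 against Trauma, and 2 rose and 10 fell against Control. Of all genes tested, 3.30%, 4.40% and 6.14% rose and 2.70%, 7.71% and 10.4% fell in these comparisons. The median log2 fold changes of the list were -0.097, -0.064 and -0.14, against -0.012, 0.0025 and -0.0090 over all genes tested. Tuba1a, a tubulin of growing neurons, fell from 2212 ± 129 to 1715 ± 111 FPKM in Trauma (log2 fold change -0.37, limma adjusted p = 0.00359), and Map1b and Crmp1 fell with it, while Stmn4 rose from 119 ± 8.05 to 141 ± 3.41 FPKM (limma adjusted p = 0.0141). The falls of Tuba1a and Map1b were lost under quantile normalization, that of Map1b also when any of 6 libraries was left out, and the rise of Stmn4 was lost without the fourth Trauma library and with the GC correction. With TGF-β1 added, Map1b, Chl1 and L1cam rose, and Basp1, a growth cone protein related in function to Gap43, fell from 628 ± 19.0 to 477 ± 42.7 FPKM (log2 fold change -0.40, limma adjusted p = 0.00982), along with Cotl1 and Stmn3. With the GC correction the calls of Basp1 and L1cam were kept and those of the other 4 were lost. These counts depended on the scaling: under quantile normalization 2 rose and 1 fell in Trauma against Control, 9 rose and 5 fell in Trauma+TGF-β1 against Trauma, and 6 rose and 4 fell against Control. Over all genes tested, the share of calls that were upward moved from 55.0%, 36.3% and 37.1% in the 3 comparisons to 62.4%, 54.8% and 55.3% under quantile normalization, and to 39.0%, 32.3% and 33.3% with the GC correction. With the GC correction 1 rose and 2 fell in Trauma+TGF-β1 against Trauma. Without the fourth Trauma library 0 rose and 2 fell in Trauma against Control, and the other libraries left out in turn gave 3 to 7 down. The list shares Tubb3 and Nefl with the neuron markers.

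**Figure D4:**
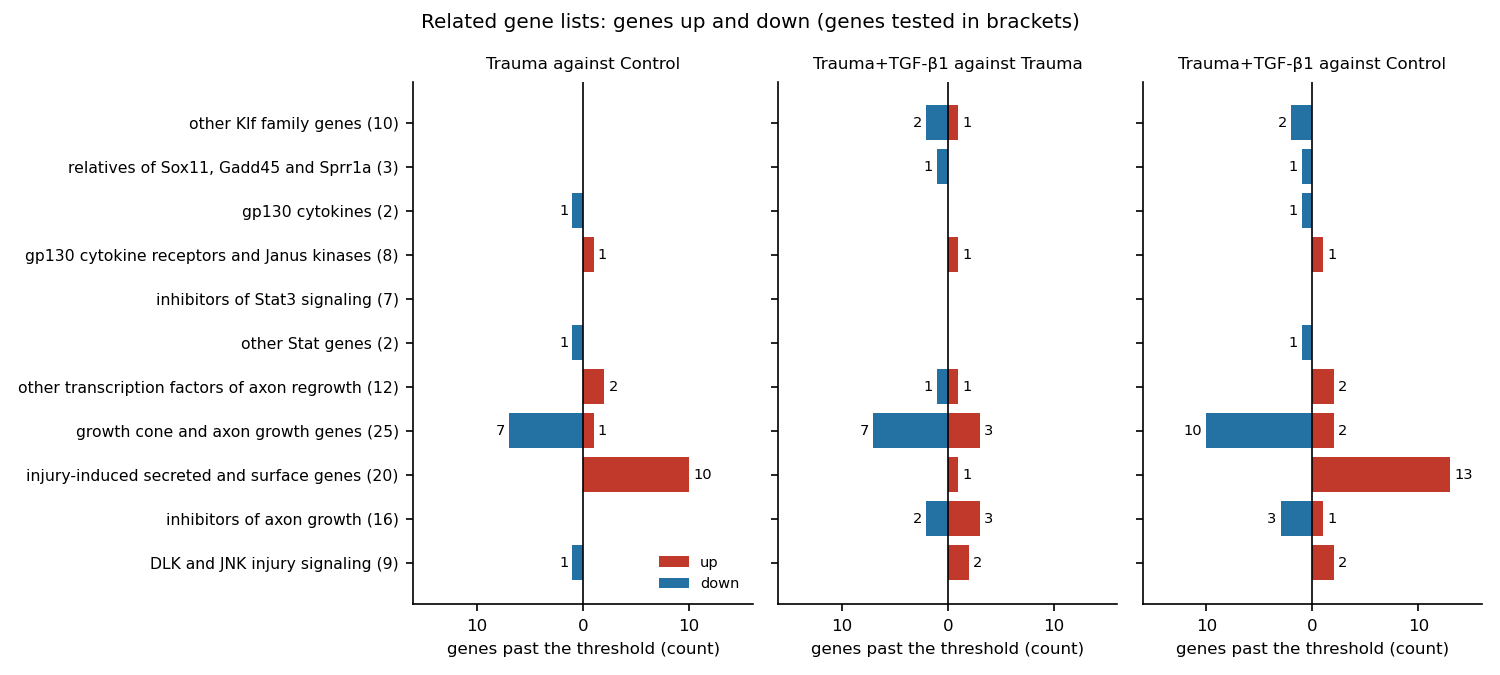
Number of genes called up (red, to the right) and down (blue, to the left) in 11 lists of related genes, with the number tested in brackets, in the 3 comparisons. The injury-induced secreted and surface genes have 10 and 13 up and 0 down in the comparisons with Control, and the growth cone genes have 7, 7 and 10 down.

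Of 18 listed inhibitors of axon growth, 16 were tested. In Trauma against Control 0 were called by limma or by voom, with 4 at an unadjusted p under 0.05. In Trauma+TGF-β1 against Trauma 3 rose, among them Omg and Rock2, and 2 fell, Lingo1 and Psd, where 4.40% and 7.71% of all genes tested did. Rock2, a kinase that acts on the growth cone's actin, went from 7.45 ± 0.593 to 9.33 ± 0.302 FPKM (log2 fold change 0.32, limma adjusted p = 0.0181), and Lingo1, a co-receptor for myelin inhibitors, went from 71.2 ± 3.77 to 60.0 ± 3.51 (log2 fold change -0.25, limma adjusted p = 0.0176). All 5 of these calls were lost with the GC correction, where 2 other genes were called up. Of 9 genes of DLK and JNK signaling, the kinase path from axon injury to Jun, all were tested. Map2k4 fell in Trauma, from 54.9 ± 3.46 to 47.8 ± 2.43 FPKM (limma adjusted p = 0.0353, lost when any of 8 libraries was left out, among them the first Control library), and was 57.5 ± 1.59 in Trauma+TGF-β1, higher than in Trauma (limma adjusted p = 0.00958, kept when each library was left out). Mycbp2, which limits DLK, was the other gene that rose in Trauma+TGF-β1 against Trauma, a call lost when any of 9 libraries was left out and with the GC correction. Against Control, Mycbp2 and Map3k13 rose, and the call of Mycbp2 was lost with the GC and gene length corrections.

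Across the 12 libraries, the genes whose log2 FPKM ran most like a called member were found among 12798 genes with a mean of at least 1 FPKM. Stat3 ran most like Nfe2l2 (Pearson's r = 0.964) and Peg10 (0.961), Klf9 like Nr4a3 (0.965) and Pcsk1 (0.958), Gadd45g like Inpp5j (0.941) and 1700016P03Rik (0.932), and Gap43 like Rapgef1 (0.946) and Tubb5 (0.938). Among the members themselves, Klf9 ran with Gadd45g (r = 0.796) and Stat3 (r = 0.787) and against Gap43 (r = -0.678). The 12 points fall into 3 groups and share library and scaling, so these values are a description, with no test.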

How the data were processed

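RNA was sequenced as paired ends on an Illumina NovaSeq in 12 libraries, 4 each of Control, Trauma and Trauma+TGF-β1, grouped by their labels. The authors aligned reads to mm10 (GRCm38) with HISAT2 2.0.5, counted reads per gene and deposited 1 table of FPKM with gene lengths and positions. DESeq2, the authors' test, was not run, and voom on recovered reads was the count-based alternative. FPKM times gene length gave whole reads for all values (tolerance 0.02 read), and the scale of each library matched median-of-ratios factors to 4.54e-07 %, so the deposited FPKM were already scaled between libraries. Depth is given in the report.

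Each library's values were scaled by a median-of-ratios factor and tested as log2(FPKM + 0.1) with limma 3.58.1 (R 4.3.3, empirical Bayes with a trend) over 15016 genes with a mean of at least 0.5 FPKM. One fit of all 12 libraries gave the 3 comparisons. Adjusted p-values are Benjamini-Hochberg over all genes tested, with a threshold of 0.05. Klf4, below the filter, had a two-sided exact permutation test, and Sprr1a, at 0 in nearly all libraries, is given without one. The code was tested on simulated data. Python 3.11.15, pandas 2.3.3, numpy 2.4.6 and matplotlib 3.10.9 were used.

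The members and lists were chosen with earlier results of these data known. Named were all members, Atf3 and Jun, per list and comparison up to 3 called genes in each direction with the largest changes (group mean of 1 FPKM or more on the higher side), and the 2 genes most like each called member. Genes outside this rule are said to be so or are named within a complete count of called genes. Alternatives covered the pseudocount, filter, scaling, GC content, gene length, replicate block, test and each library left out. The counts of listed genes under other scalings and without each library were added after seeing the data. Some genes of the lists are not reported here.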

Additional observations from a re-analysis of the deposited data

Results flagged for a closer look

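The Sprr1a value of 0.279 FPKM in the fourth Trauma library (4 reads) stood apart because the other 3 Trauma libraries were at 0. With those 3 tied at 0, any read in the fourth would stand apart in the same way, so the comparison adds nothing to the 4 reads. No other group of member values, of 28 tested, had a library that stood apart.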

How the results depend on the processing

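Over 26 alternatives (12 that each leave out 1 library and 14 others), 597 member values were recomputed. Of these, 543 kept their direction and side of the threshold, 15 lost a call, 16 gained one and 23 changed sign. Members called in Trauma against Control were 3, or 1 when a log2 difference of 0.5 or more in size was also required, and 2 to 4 with each library left out. Between Trauma+TGF-β1 and Trauma they were 0, or 1 under the GC correction with replicate block (Stat3, limma adjusted p = 0.0469), and 0 to 0 with each library left out. For Trauma+TGF-β1 against Control they were 3, or 5 with the GC correction, 6 with it and the replicate block, and 0 with that minimum size, and 2 to 3 with each library left out. With the replicate block alone, 4, 0 and 4 members were called in the 3 comparisons, Gap43 joining in the first and Gadd45g in the last. The replicate numbers gave no clear pairing of the libraries, though correlations this weak cannot exclude one. Deviations of same-numbered libraries correlated at -0.00878 to 0.0762 over 12 pairs, and those of other numbers at -0.0912 to 0.0733. Of 24 combinations of a library with another group, 7 correlated best with their own number. Sign changes were small and among uncalled values. Under quantile normalization Sox11 (0.014) and Klf7 (0.022) turned positive in Trauma against Control, Gap43 (0.040), Klf6 (0.026) and Klf9 (0.055) in Trauma+TGF-β1 against Trauma, and Klf6 (0.0071) in Trauma+TGF-β1 against Control. Under the gene length correction Gap43 (0.085) and Klf6 (0.015) did so in Trauma+TGF-β1 against Trauma. With each library left out, Trauma against Control ran from -0.050 to 0.029 for Sox11, from -0.038 to 0.021 for Klf7 and from -0.066 to 0.42 for Gadd45a, and Trauma+TGF-β1 against Trauma from -0.025 to 0.023 for Gap43, from -0.039 to 0.022 for Klf6 and from -0.036 to 0.015 for Klf9. The cause of these moves was not tested. Genes called over the whole table numbered 901, 1819 and 2487 in the 3 comparisons. They were 575 and 987 without a filter in the first and second, 530 and 1575 with fits of 2 groups in the first and last, 818 with the GC correction in the second, and 1366 and 740 with that and the block in the first and second. With that minimum size they were 309, 334 and 570. For Sprr1a, Klf4 and Gadd45a the few reads limit what could be seen.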
